A study of Homo sapiens with 8 samples.

Results

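PTPRM, ANTXR1 and CDCP1 encode proteins that span the plasma membrane and take part in the attachment of cells to each other or to the matrix. The sites described here were chosen by their position in the deposited lists of transcription start sites of replicatively senescent and of proliferating fibroblasts. A site was taken when its midpoint lay in the annotated span of 1 of the 3 genes or within 1 kb upstream of it. This gave 30 of the 1249 listed sites, 12 in PTPRM, 10 in ANTXR1 and 8 in CDCP1. All 30 came from the list of 849 sites of senescent cells, and 0 came from the list of 400 sites of proliferating cells. The genes were chosen because they hold many of these sites, so their counts, folds and reads are descriptions and carry no test.

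The cells were IMR90, a line of human lung fibroblasts, grown in 3% oxygen and brought to senescence by serial passage (replicative exhaustion). Every sample is this 1 line, at an early or a late population doubling. Proliferating cells were sampled at population doubling 20 for PRO-seq, and at 23 and, with replicates A and B, at 26 for PRO-cap. Senescent cells, kept in dishes for 2 weeks to establish growth arrest, were sampled at population doubling 76 for PRO-seq, and at 76 and, with replicates A and B, at 67 for PRO-cap. PRO-seq maps engaged RNA polymerases, and PRO-cap maps the capped 5′ ends of nascent transcripts. The files analysed here are 2 lists of PRO-cap sites with 1 value a site, without a value for each library, and nothing printed below carries a spread between cultures. The lists hold sites that differ between the states and no expression level, so the fibroblast label could not be checked by marker levels. A listed site was present in 1 of 10 fibroblast markers, which was PDGFRA, in 0 of 5 epithelial markers and in 0 of 4 endothelial markers found in the annotation. Over all protein-coding genes the share was 2.04%, and 5.99% over those at least as long as CDCP1 (2, 1 and 2 of the markers), so these counts do not tell the cell types apart.

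PTPRM is a receptor protein tyrosine phosphatase. Its extracellular part binds the same protein on a neighbouring cell, and its intracellular phosphatase domains remove phosphate from proteins of cell junctions. ANTXR1, also known as TEM8, is a receptor for collagen and for the protective antigen of anthrax toxin, and its cytoplasmic tail connects to actin. CDCP1 is a glycoprotein with extracellular CUB domains that is phosphorylated by SRC family kinases and cleaved by serine proteases, and it is known for its part in the detachment of cells from matrix. Start sites inside introns, far from the 5′ end of a gene, can belong to alternative promoters or to enhancers, which are often transcribed from both strands. AP-1 is the name for dimers of FOS and JUN family proteins, which bind the 7 bases TGAGTCA, read as TGACTCA on the opposite strand.

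The sequences below are shown because they carry every AP-1 match of the sites, or the most reads in a gene at a site without such a match (ANTXR1 site 6 and CDCP1 site 2). CDCP1 site 1 is shown as the neighbour of site 2 that holds a TATA box. They were read on the strand of the gene from GRCh37, whose coordinates are those of hg19. Capitals mark AP-1 matches and TATA boxes (TATAAA or TATATA, either strand), and all other bases are in lower case. Sites are numbered from the 5′ end of each gene.

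In PTPRM, all on the + strand, 187 bases around the match between sites 9 and 10 (chr18:8141213-8141399), 187 around the match between sites 11 and 12 (chr18:8142241-8142427), the joint span of overlapping sites 1 and 2 (chr18:8116482-8116646), site 3 (chr18:8116825-8116974) and site 6 (chr18:8122114-8122263) read:
PTPRM sites 9 and 10: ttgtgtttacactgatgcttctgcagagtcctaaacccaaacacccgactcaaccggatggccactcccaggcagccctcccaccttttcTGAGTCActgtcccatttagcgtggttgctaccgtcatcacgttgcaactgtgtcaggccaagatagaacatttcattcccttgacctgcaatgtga
PTPRM sites 11 and 12: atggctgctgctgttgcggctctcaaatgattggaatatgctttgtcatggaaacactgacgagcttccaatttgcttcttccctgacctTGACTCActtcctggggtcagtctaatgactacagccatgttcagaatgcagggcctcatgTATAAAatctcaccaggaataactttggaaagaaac
PTPRM sites 1 and 2: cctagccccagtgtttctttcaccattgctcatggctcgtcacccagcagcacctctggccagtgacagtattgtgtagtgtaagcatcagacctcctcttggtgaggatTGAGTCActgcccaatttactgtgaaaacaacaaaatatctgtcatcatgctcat
PTPRM site 3: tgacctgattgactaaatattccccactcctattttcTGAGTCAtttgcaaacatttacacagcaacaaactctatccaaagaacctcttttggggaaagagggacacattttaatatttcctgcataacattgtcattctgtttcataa
PTPRM site 6: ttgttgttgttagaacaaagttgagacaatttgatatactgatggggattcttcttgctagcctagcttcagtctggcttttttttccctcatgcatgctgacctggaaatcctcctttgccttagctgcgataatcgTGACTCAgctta

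In ANTXR1, on the + strand, the joint span of overlapping sites 1 and 2 (chr2:69326913-69327107), 187 bases around the match at the 3′ edge of site 4 (chr2:69390271-69390457), and site 6, which has the most reads in the gene and no AP-1 match (chr2:69403521-69403670), read:
ANTXR1 sites 1 and 2: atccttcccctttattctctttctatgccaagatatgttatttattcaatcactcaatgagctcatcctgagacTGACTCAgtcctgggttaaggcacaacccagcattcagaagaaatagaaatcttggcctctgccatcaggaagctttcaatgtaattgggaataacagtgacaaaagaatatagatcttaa
ANTXR1 sites 4 and 5: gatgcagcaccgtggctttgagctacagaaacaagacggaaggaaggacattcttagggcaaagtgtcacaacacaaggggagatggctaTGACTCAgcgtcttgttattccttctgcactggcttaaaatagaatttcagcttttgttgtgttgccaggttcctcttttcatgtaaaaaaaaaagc
ANTXR1 site 6: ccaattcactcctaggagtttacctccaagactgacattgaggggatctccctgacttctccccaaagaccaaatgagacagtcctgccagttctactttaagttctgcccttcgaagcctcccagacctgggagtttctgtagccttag

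In CDCP1, on the - strand, site 2, which has the most reads in the gene (chr3:45155134-45155283), and site 1, with a TATA box (chr3:45155322-45155471), read:
CDCP1 site 2: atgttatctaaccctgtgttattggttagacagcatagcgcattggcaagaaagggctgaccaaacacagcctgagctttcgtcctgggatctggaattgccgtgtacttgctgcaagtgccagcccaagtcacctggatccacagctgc
CDCP1 site 1: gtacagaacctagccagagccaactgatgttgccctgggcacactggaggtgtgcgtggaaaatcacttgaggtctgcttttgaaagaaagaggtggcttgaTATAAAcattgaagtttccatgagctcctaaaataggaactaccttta

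Each site carries the authors' fold of senescent over proliferating cells. It was taken apart into reads: every senescent read counted 32.8, every proliferating read counted 39.4, and 1 was added to both sums before the division. All 849 senescent-only folds, which include the 30 members, and all 400 others were matched by exactly 1 pair of whole numbers within 1e-06 of a read, and reads below are from this decoding. If the steps scale both states to the same total, the senescent data were 1.20 times as deep. Sites are 150 bases wide and the strand column of all 1249 holds +, so the direction of transcription at a site is not known from the lists. Intervals cover counting error only and treat reads as independent. Reads of amplified libraries are not independent molecules, so these intervals can be too narrow.

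Senescent-only sites lay in 410 of 20136 protein-coding genes (2.04%), and in 5.99% of genes at least as long as CDCP1. Proliferating-only sites, of which the 3 genes had none (0), lay in 1.09% and 2.8%. Of the 410 genes, 227 held 1 site and 9 (0.0447% of all coding genes) held 8 or more. PTPRM ranked 1st with 12, ANTXR1 4th with 10 and CDCP1 9th with 8. Relative to length the order turned: CDCP1 had 12.5 sites per 100 kb (4th of 410), ANTXR1 had 4.23 (39th) and PTPRM had 1.43 (154th), beside a median of 0.924. The nearest senescent-only sites outside the spans were 1507 kb away from PTPRM (51 senescent and 2 proliferating reads), 2397 kb from ANTXR1 (36 and 0) and 3807 kb from CDCP1 (25 and 1).

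**Figure D1:**
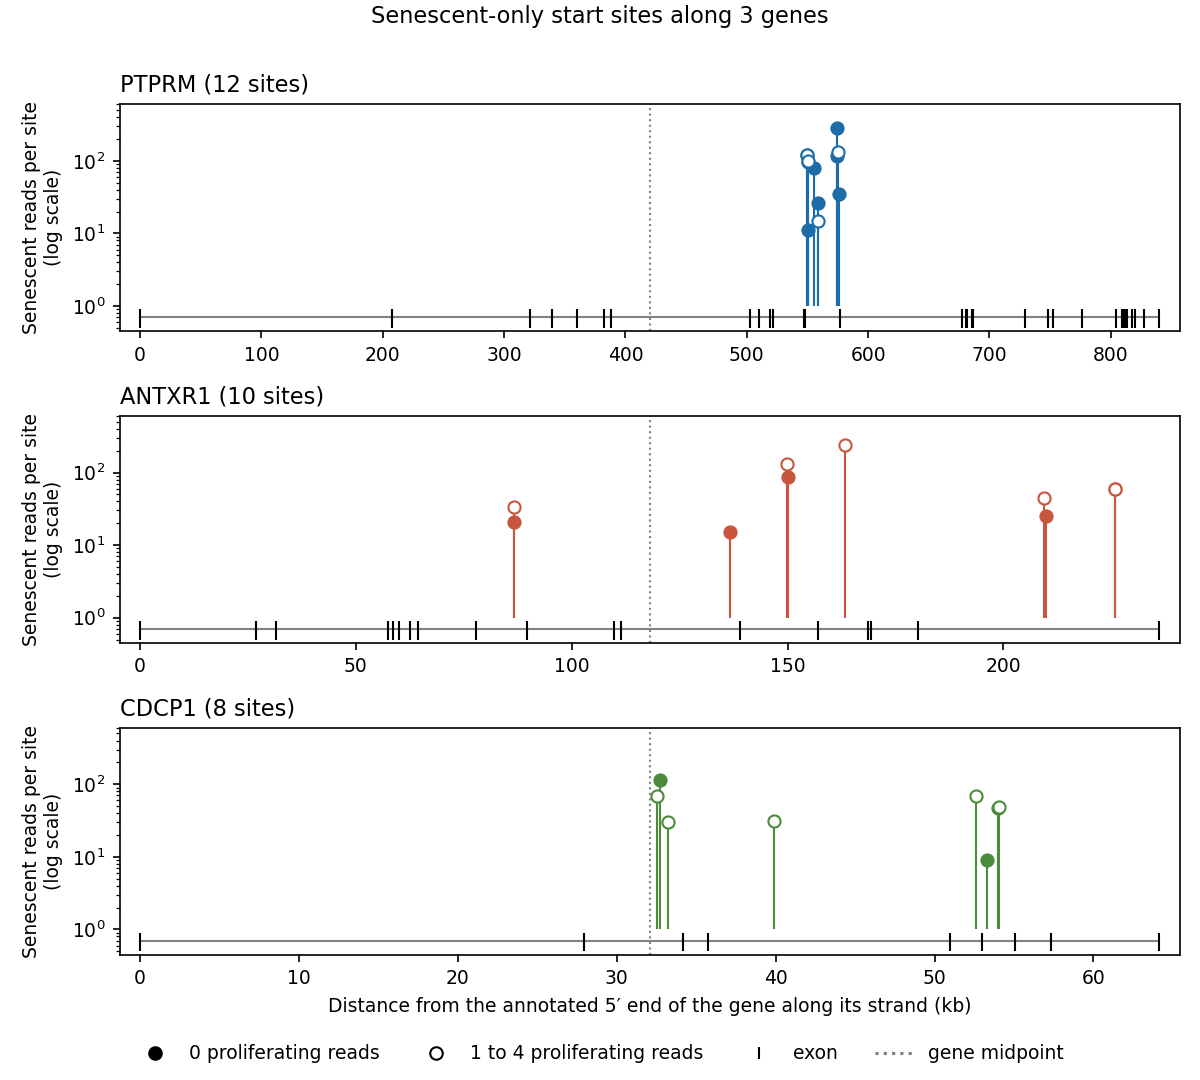
Senescent-only start sites along PTPRM, ANTXR1 and CDCP1, from the annotated 5′ end of each gene on its own strand (kb). Stem height is the number of senescent reads per site on a log axis, filled circles have 0 and open circles 1 to 4 proliferating reads, ticks mark exons of the principal transcript, and the dotted line is the gene midpoint. The 12 PTPRM sites stand within 1 intron, while the ANTXR1 and CDCP1 sites fall in 5 and 4 introns.

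PTPRM, on the + strand of chromosome 18 from 7566780 to 8406859, held its 12 sites in 1 of the 32 introns of its principal transcript. This was intron 13, from 8114826 to 8143644, which makes up 3.43% of the gene. The sites lay 550 to 576 kb downstream of the first exon's start (65.4% to 68.5% of the gene's length). They stood in 2 groups toward either end of the intron: sites 1 to 8 between 8116482 and 8125397, and sites 9 to 12 between 8141151 and 8142497. Intron 1, the longest at 206 kb, held none (0).

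Site 9 of PTPRM, at 8141151 to 8141300, had 283 senescent reads (95% Poisson interval 251 to 318) and 0 proliferating reads, a fold of 9287. Against the limit that a count of 0 allows (3 reads at that site), and with the senescent count taken as it stands, it was at least 78.6-fold higher in senescent cells. The exact 95% interval, which also covers the counting error of the senescent reads, reached down to 63.5, and this lower limit stands in brackets after each such bound. Site 10 began 3 bases after the end of site 9 and had 117 and 0 reads, at least 32.5-fold higher (26.02). The pair was thus free of proliferating reads at this depth, with site 9 ranking 2nd of 849 by fold and 20th by senescent reads.

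Sites 11 and 12 formed a second abutting pair, 4 bases apart, 740 bases beyond site 10. Site 11 had 132 senescent and 2 proliferating reads, a scaled ratio of 55.0 (exact 95% interval 14.9 to 459). Site 12 had 35 and 0 reads, at least 9.72-fold higher (7.498). All 4 sites of this group ended between 2344 and 1147 bases before exon 14.

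The group near exon 13 began 1656 bases into the intron. Sites 1 and 2 overlapped by 135 bases and had equal values, 122 senescent and 2 proliferating reads each, so they cannot be counted as separate sets of reads. Site 3 had 96 and 4 reads, a fold of 19.9 with an interval of the scaled ratio from 7.56 to 74.9, and the most proliferating reads of the 30 sites. Sites 4 and 5 overlapped by 97 bases but differed, with 98 and 2 reads at site 4 and 11 and 0 at site 5. Sites 1 to 4 thus all had proliferating reads, while site 5, at least 3.06-fold higher (2.09), had none (0).

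Site 6 of PTPRM, with 80 and 0 reads and at least 22.2-fold higher (17.7), was the 1 member near an annotated start. It lay 338 bases beyond the start of PTPRM-205, at 8121850, a transcript annotated as a retained intron, and so falls in the promoter class (within 1 kb of any transcript start). Sites 7 and 8 overlapped by 22 bases, with 26 and 0 reads at site 7 and 15 and 1 at site 8. The coding transcript PTPRM-204 starts at 8113569, which is 2987 bases before the middle of site 1 and 5′ of the intron. From sites 9 to 12 the nearest annotated start was that of ENSG00000286649 on the - strand, 5195 to 6392 bases away.

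**Figure D2:**
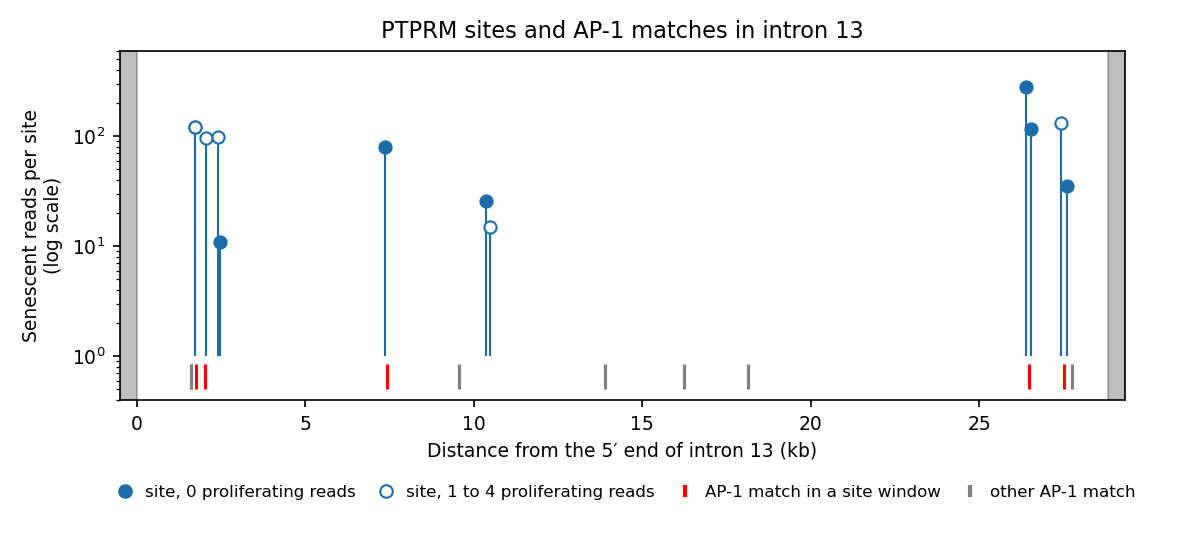
PTPRM sites in intron 13, by distance from its 5′ end (kb) and by senescent reads per site (log axis), with filled circles for 0 and open circles for 1 to 4 proliferating reads. Short bars below mark AP-1 matches, red where they fall in the 200 bases centred on a site (5 of 12) and grey elsewhere, and grey bands are the flanking exons.

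ANTXR1, on the + strand of chromosome 2 from 69240308 to 69476459, held its 10 sites in 5 of 17 introns, in 6 groups when sites were joined within 10 kb. They lay 86.7 to 226 kb from the 5′ end (36.7% to 95.6% of the gene). Sites 1 and 2, in intron 9, were the 2 members before the midpoint of their gene, and the other 28 of the 30 lay past it. They overlapped by 105 bases, with 33 and 1 reads at site 1 and 21 and 0 at site 2. Site 3, in intron 12, had 15 and 0 reads, at least 4.17-fold higher (2.99).

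Intron 13 of ANTXR1 held site 4 with 131 senescent and 2 proliferating reads, a scaled ratio of 54.6 (14.8 to 456). Site 5 began 74 bases beyond it and had 86 and 0 reads, at least 23.9-fold higher (19.0) and the highest fold of the gene (2823). In intron 14, site 6 at 69403521 to 69403670 had the most reads of the gene, 240 senescent and 3 proliferating, a ratio of 66.7 (22.5 to 326). The fold of site 6 was 66.1, below that of site 3, which had 15 reads. Reads and folds therefore ordered the ANTXR1 sites differently.

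Intron 17, which at 51.8 kb is the longest of ANTXR1, held 4 sites. Site 7 had 45 and 2 reads, and site 8, 451 bases on, had 25 and 0. Sites 9 and 10 started 1 base apart and had equal values of 59 and 2 reads, a ratio of 24.6 (6.51 to 208), and again cannot be counted separately. No ANTXR1 site lay within 1 kb of an annotated transcript start (0 of 10), and the nearest start, that of the microRNA gene MIR3126, was 3782 bases from site 2.

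CDCP1, on the - strand of chromosome 3 from 45123769 to 45187914, held its 8 sites in introns 2, 4, 5 and 6 of 8, at 50.7% to 84.2% of the gene. Intron 2 held 3. Site 2, at 45155134 to 45155283, had 116 senescent and 0 proliferating reads, at least 32.2-fold higher (25.8), and a fold of 3807. Site 1 ended 38 bases before it and had 68 and 3 reads, a ratio of 18.9 (6.20 to 93.9). Site 3 had 30 and 1 reads.

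The other 5 sites of CDCP1 had 9 to 69 senescent reads. Site 4, in intron 4, had 31 and 2, a ratio of 12.9 (3.29 to 111). Site 5, in intron 5 and 63 bases from exon 6, had 69 and 2. Introns 5 and 6 span 1.69 and 1.74 kb and together held 4 of the 8 sites, with site 6 at 71 bases past exon 6. Site 6 had 9 and 0 reads, at least 2.5-fold higher (1.65). Sites 7 and 8 overlapped by 119 bases with 47 and 49 senescent and 2 proliferating reads each. The 5′ end of CDCP1 was 32.5 kb or more away from all of these sites.

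The folds and reads of the 3 genes can be read side by side. With overlapping sites counted once, by the site with the most reads, PTPRM had 989 senescent and 10 proliferating reads at 9 sites, a scaled ratio of 82.4 (exact 95% interval 44.6 to 172). ANTXR1 had 634 and 10 at 8 sites, a ratio of 52.8 (28.5 to 111). CDCP1 had 372 and 10 at 7 sites, a ratio of 31.0 (16.7 to 65.2). The order followed the senescent reads, since proliferating reads numbered 10 in each gene, and the intervals of all 3 genes overlap each other. The rest of the senescent-only list gave 39.5 (37.1 to 42.2).

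Many of these sites were not free of proliferating reads. No proliferating read was present at 6 of 12 PTPRM, 4 of 10 ANTXR1 and 2 of 8 CDCP1 sites, 12 of 30 in all (40%, Wilson 95% interval 24.6 to 57.7), where 55.4% of the senescent-only list had none. The other 18 had 1 to 4. The Wilson interval counts overlapping sites as separate ones and is too narrow where they share reads. The members had more senescent reads, a median of 59 (range 9 to 283) beside 31 in the rest of the list (range 1 to 908), and 29 of 30 had at least 10. Both of these values come from the contrast that put the sites in the list.

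The authors' fold ranks the members by whether a single proliferating read was present. The pseudocount of 1 is 0.0305 of a senescent read, so 1 read over 0 gives a fold of 33.8, and the first proliferating read divides the fold by 40.4. The median fold of the members was 52.1, below the 296 of the list. After adding 1 read to each state and scaling by the steps, the medians were 18.9 and 15.0, so the direction turned. By gene the medians went from 208 to 32.1 in PTPRM, from 60.0 to 17.5 in ANTXR1 and from 22.3 to 13.6 in CDCP1, and their order stayed as it was.

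**Figure D3:**
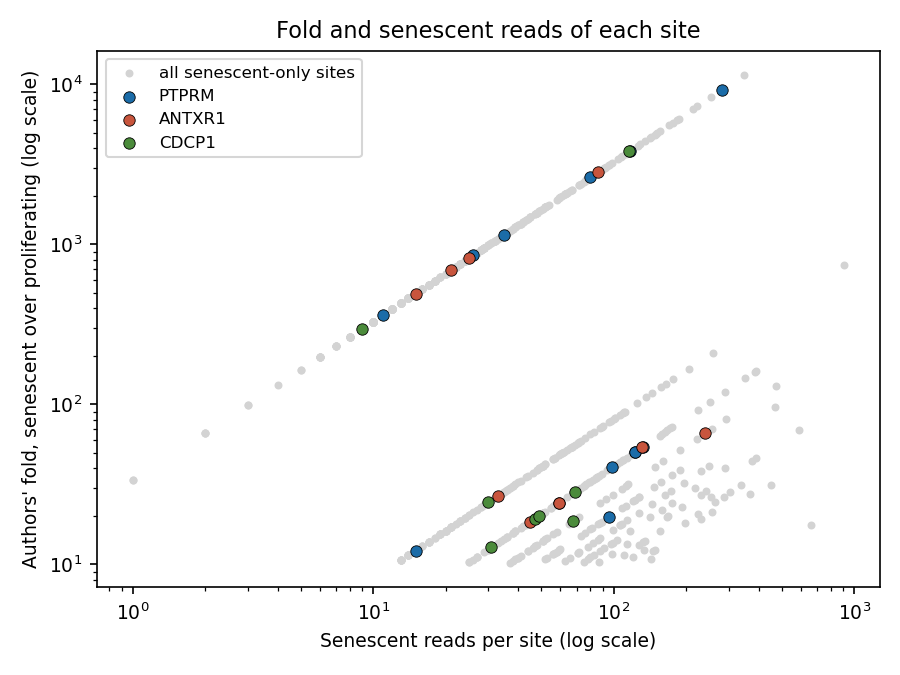
The authors' fold against senescent reads for each senescent-only site, both on log axes, with PTPRM, ANTXR1 and CDCP1 in colour and the whole list of 849 in grey. The upper line holds sites with 0 proliferating reads, 12 of the 30 members, and the lower lines hold sites with 1 or more.

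The members stood closer together than most of the list. Another senescent-only site lay within 500 bases of 11 of 12 PTPRM, 8 of 10 ANTXR1 and 5 of 8 CDCP1 sites (24 of 30, 80%), beside 46.2% of the list. Sites overlapped another in 12 of 30 cases (40%), beside 18.8%. Of 27 pairs of neighbours in the 3 genes, 6 overlapped, 2 of them with equal reads, 3 were 50 or fewer bases apart and 5 were 51 to 500 apart. The abutting pairs at 3 and 4 bases in PTPRM were 2 of 11 pairs with gaps of up to 10 bases among 826 neighbour pairs of the list. Joining within 500 bases left 5, 6 and 5 regions in PTPRM, ANTXR1 and CDCP1, which brings the counts of the 3 genes to nearly the same value. Genes with many sites were chosen, so a high share of close sites is in part given by the choice.

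By class, 29 of 30 members were intronic and 1, PTPRM site 6, was in the promoter class. The list as a whole was 82.9% intronic. The coding sequence on either side was read from the principal transcripts. The exons 5′ of PTPRM intron 13 encode 722 of 1465 residues, and the most hydrophobic stretch of 21 residues, taken past residue 50, is at residues 743 to 763, the membrane-spanning segment. The 12 sites thus lay past the exons that encode most of the extracellular part. The exons after them encode its last residues, the transmembrane segment and the phosphatase domains.

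In ANTXR1 the hydrophobic stretch is at residues 322 to 342 of 564, and sites fell on both sides of it, 3 with 234 to 317 residues encoded before them and 7 with 349 to 478. In CDCP1 it is at residues 668 to 688 of 836, and all 8 sites came before it, with 97 to 542 residues encoded 5′ of them. A transcript that started at these sites and ran along the gene would hold the later exons, but the direction of the starts was not measured in the lists, and no such transcript was measured here.

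**Figure D4:**
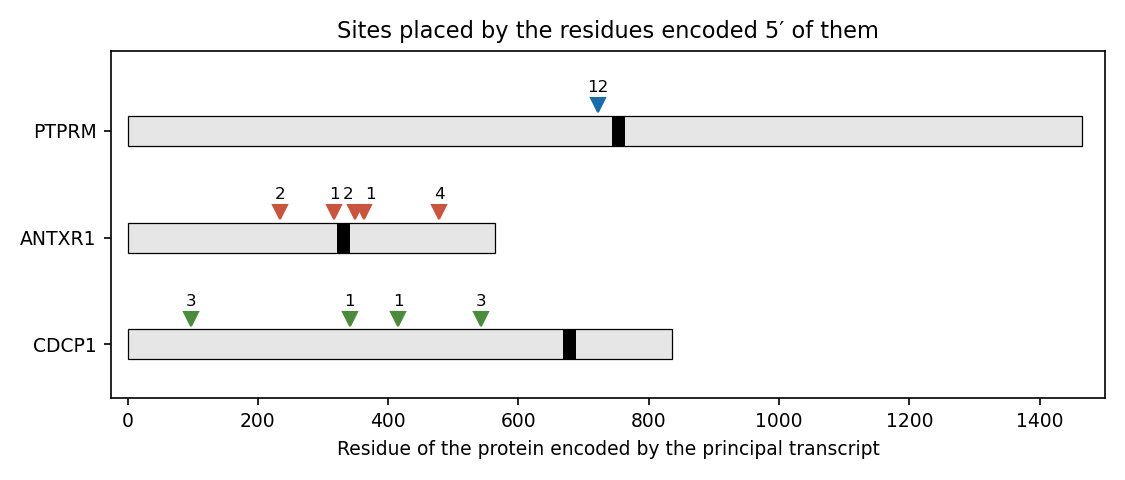
Proteins encoded by the principal transcripts of PTPRM, ANTXR1 and CDCP1 as grey bars (residues), with the most hydrophobic 21 residues in black. Triangles mark the number of residues encoded 5′ of each group of sites and the numeral over each is the number of sites. The PTPRM triangle, at residue 722, stands 21 residues before the black segment.

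Motifs were searched in the 200 bases centred on each site, on both strands. An AP-1 match was present at 8 of 12 PTPRM sites (66.7%, Wilson 95% interval 39.1 to 86.2), at 3 of 10 ANTXR1 sites (30%, 10.8 to 60.3) and at 0 of 8 CDCP1 sites (0%, up to 32.4). Of the senescent-only list 18.4% had one, of the proliferating-only list 10%. Adjacent windows of 200 bases over the same genes held a match in 3.12% (PTPRM), 3.90% (ANTXR1) and 4.06% (CDCP1) of cases, and RefSeq promoters (GRCh38.p14, 150 bases before to 50 after the start) in 3.65% of 35116. No test of these differences was made, since sites of 1 gene are not replicates and several share 1 match. The Wilson intervals count each site as separate and are too narrow where a match is shared.

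The PTPRM matches came down to 5 distinct heptamers, at 8116592, 8116862, 8122252, 8141303 and 8142331, and they were in 4 of its 5 regions joined within 500 bases, beside 20.9% of regions in the list. Intron 13 holds 12 AP-1 heptamers, 4.16 per 10 kb, beside 1.65 per 10 kb over the whole gene. The site windows, which cover 6.60% of the intron, contain 5 of the 12. The match at 8141303 begins in the 3 bases between sites 9 and 10, and its middle is at 80.5 bases from the centre of site 9 and -72.5 from that of site 10 (negative toward the 5′ end). The match at 8142331 is in the last bases of site 11, at 65.5 from its centre and -88.5 from that of site 12. In both abutting pairs, then, the heptamer stood at the border of the 2 sites, as the printed sequences show.

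With the window cut to the 150 bases of the site, the PTPRM share fell to 41.7%, because the matches near sites 9, 10 and 12 reach outside them, and the share of the list was 14.1%. PTPRM sites with a match had 35 to 283 senescent reads (median 119.5), and the 4 without had 11 to 98 (median 20.5), so the 2 ranges overlap. Over the whole list the medians were 34.5 with and 31 without.

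ANTXR1 had 2 distinct heptamers among its sites. The 1 at 69326987 is at 2.5 bases from the centre of site 1 and -42.5 from that of site 2. The 1 at 69390361 is near the 3′ end of site 4, at 69.5 from its centre. ANTXR1 sites with a match had 21, 33 and 131 reads, within the 15 to 240 reads of those without, which include the site with the most reads.

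**Figure D5:**
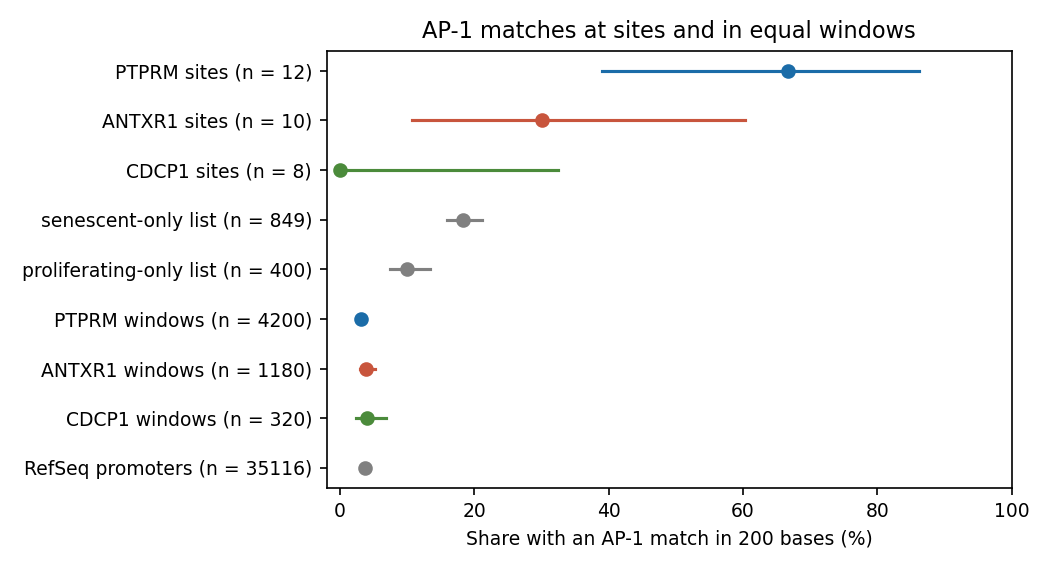
Share of sites or windows of 200 bases with an AP-1 match (%), with Wilson 95% intervals, for the sites of PTPRM, ANTXR1 and CDCP1, both lists of sites, adjacent windows across the 3 genes and RefSeq promoters. PTPRM sites stand at 66.7%, the senescent-only list at 18.4% and the windows of the 3 genes at 3.12% to 4.06%.

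Besides AP-1, counts of the other 4 motifs were too small to set the members apart from the list. For each motif the Wilson interval of the members' share (in %) held the share of the list. It ran from 9.51 to 37.3 for TEAD and for TATA boxes, from 3.46 to 25.6 for RUNX and from 5.31 to 29.7 for C/EBP. A TEAD match (CATTCC), bound by the partners of YAP, was present at 3 PTPRM, 0 ANTXR1 and 3 CDCP1 sites, 6 of 30 (20%) beside 17.8% of the list. In CDCP1 the matches of sites 7 and 8 are the same 6 bases at 45133951. TATA boxes were present at 3, 2 and 1 sites, 6 of 30 (20%) beside 14.7%. They stood from -28 (PTPRM site 12) to 97 bases (PTPRM site 2) from the centre of the site, and the lists give no direction. RUNX matches (TGTGGT) were at 3 of 30 sites (10%) beside 19%, and C/EBP matches (TTGCNNAA) at 4 of 30 (13.3%) beside 10.5%. The RUNX matches of PTPRM sites 4 and 5 are the same 6 bases at 8117227. The windows across the PTPRM gene held these 4 motifs in 11.1%, 25.2%, 13.7% and 10.8% of cases, where 3 of 12 PTPRM sites (25%) had a TATA box. Windows across ANTXR1 and CDCP1 held a TATA box in 22.1% and 20.3% of cases, beside 20% and 12.5% of their sites.

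Median base composition of the members lay nearer to that of the list than to that of gene starts. Median GC content was 42.5% in PTPRM (35.5 to 56), 46.5% in ANTXR1 (37.5 to 54) and 44% in CDCP1 (36.5 to 53.5), beside 45.5% for the list. Windows across the same genes had medians of 39.5%, 42% and 46%, and the RefSeq promoters 60%. The observed-to-expected ratio of CpG, the dinucleotide that is frequent in CpG islands, had a median of 0.201 at the members, 0.186 in the list and 0.596 at promoters. The RefSeq promoters of the genes themselves had a GC content of 64.25% in PTPRM (median of 2), 56.75% in ANTXR1 (median of 2) and 76.5% in CDCP1 (1 promoter).

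Genes that work with the 3 were read from 6 lists. Of 103 other genes, 8 held a senescent-only site (7.77%) and 1 held a proliferating-only site (0.971%). Of the 66 at least as long as CDCP1, 7 held a senescent-only site (10.6%), beside 5.99% of all such genes. Among 19 other receptor tyrosine phosphatases, 2 held 1 site each: PTPRK, the close relative of PTPRM that also binds itself between cells, with 10 and 0 reads, and PTPRH with 11 and 0. The 12 sites of PTPRM stood beside 0 or 1 in each of the 19 others, but PTPRM was chosen for its many sites. Relative to length, PTPRH had 3.54 sites per 100 kb and PTPRK 0.181, beside 1.43 in PTPRM. The share of the 19 others with a site was 10.5%, and 17 of the 19 are at least as long as CDCP1.

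Of 17 cadherins, catenins and other partners of PTPRM, CDH13, a cadherin anchored in the membrane by a lipid, held 7 senescent-only sites in 5 regions. CDH13 was the 1 gene of the 17 with a site (5.88%), beside 5.99% of all genes at least as long as CDCP1, as 14 of the 17 are. Its sites had 9 to 106 senescent reads and 0 to 2 proliferating reads. None of the 11 genes around ANTXR1, which include ANTXR2, LRP6 and the collagen VI genes, held a site of either list (0 of 11). The same held for the 9 kinases, proteases and receptors around CDCP1, which include SRC, FYN and ST14 (0 of 9). Only 6 of the 11 and 3 of the 9 are at least as long as CDCP1. With senescent-only sites in 5.99% of all such genes, 0 among so few is no result about these partners.

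Integrins, the main receptors for matrix, had senescent-only sites in 3 of 26 genes (11.5%) and proliferating-only sites in 1 (3.85%). Over all genes at least as long as CDCP1, as 14 of the 26 are, the shares were 5.99% and 2.8%. ITGA2, a collagen-binding subunit, held 2 overlapping senescent-only sites with 172 and 2 reads and with 40 and 1 reads. ITGA11, also collagen-binding, held 1 site with 9 and 0 reads, and ITGB5 held 1 with 10 and 0. ITGB8 held 3 proliferating-only sites with 2, 17 and 13 proliferating and 0 senescent reads, the 1 gene of the lists with sites of proliferating cells. Of 21 focal adhesion proteins, LPP held 1 senescent-only site (12 and 0 reads) and ACTN1, an actin crosslinker, held 1 (30 and 2). That is 9.52% of the 21, of which 12 are at least as long as CDCP1. Counts this small do not set these families apart from the shares over all genes.

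The genes whose pattern was most like the 3 were found by the distance of log2 sites, log2 regions joined within 10 kb and log10 median fold, over the 2 states and among genes with no proliferating-only site. Nearest to PTPRM were GTDC1 (12 sites, 3 regions, median fold 592, distance 0.740) and MED15 (7 sites, 2 regions, 395, 0.826). Nearest to ANTXR1 were PALM2AKAP2 (9 sites, 5 regions, 16.1, 0.648) and NALF1 (11 sites, 6 regions, 395, 0.829). Nearest to CDCP1 were KCNJ15 (6 sites, 2 regions, 20.8, 0.416) and MGAT5 (9 sites, 1 region, 42.3, 1.05). With the median ratio of reads, 1 read added to each state, in place of the fold (an alternative chosen after the data were examined), STK32B came nearest to PTPRM (distance 0.438), before GTDC1 (0.592) and MED15 (0.830). NALF1 (0.173) and PALM2AKAP2 (0.362) stayed the nearest 2 to ANTXR1 in the other order. MED15 came nearest to CDCP1 (0.210), before KCNJ15 (0.421), and MGAT5 ranked 15th.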

How the data were processed

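PRO-cap and PRO-seq libraries were made from proliferating and senescent IMR90 cells (8 samples in 4 groups). The 4 deposited files held 2 distinct lists, because each list was deposited for the series and, with identical content, for 1 sample. HOMER, bedtools 2.27.1-65, cutadapt 2.10, SAMtools 1.1 and BWA 0.7.10 are named per the submitters' processing notes, without roles, and hg19 is among the builds. How sites were called, from which libraries and with which cutoffs was not given in the sources used here. The deposited value per site is a fold (a ratio of the states) as the authors computed it. Library depths are unknown, and the number of reads per site sets the precision.

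Reads were decoded from the folds, sites were placed on GENCODE 44 lifted to GRCh37 (0 of 1249 lay past a chromosome end), and motifs and GC content were read in 200 bases, with Python 3.11.15, pysam 0.24.0 and scipy 1.17.1. The principal transcript is the Ensembl canonical one. The decoding, joining and motif search were tested on simulated data. The members, the gene lists and the motifs were chosen with earlier results of these data known, and PECAM1 was not found in the annotation. Named are the 3 genes with every site, each gene of the 6 lists with a site, and the 2 genes most like each of the 3. No test was run, because the rule used the contrast and the lists hold no value per library. The alternatives tried were other gene spans, joining, read and fold limits, pseudocounts, window widths and transcript sets.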

Additional observations from a re-analysis of the deposited data

How the results depend on the processing

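Of 54 alternative values for 15 results, 39 stayed close to the reported value (counts within 1.5 times, other values within their 95% interval) and 15 moved. Joining within 500 bases left 5 PTPRM, 6 ANTXR1 and 5 CDCP1 regions, and joining within 10 kb left 2, 6 and 2. Sites with no proliferating read numbered 6, 4 and 2, as did sites in the 50% with the highest folds. With 1 read added to each state the median fold was 32.1 in PTPRM and 17.5 in ANTXR1. With the highest site of each region joined within 500 bases it was 1149 in PTPRM and 592 in ANTXR1, far above 208 and 60.0, though inside the wide intervals of those medians (40.3 to 2626 and 24.3 to 821). In CDCP1 the interval of the median fold ran from its lowest to its highest site (12.8 to 3807), so no median of its folds could move. Where intervals are this wide, staying close says little. With protein-coding transcripts only, 100% of PTPRM sites were intronic, since PTPRM-205 is not among them. Counting overlapping sites once, an alternative chosen after the data were examined, left 9, 8 and 7 sites. No paired analysis was possible because neither list gives a value for a single sample, and for that reason leaving out replicates was not possible either. Sites with few reads, such as CDCP1 site 6 with 9, allow only a small lower bound on the difference.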
